A study of Mus musculus with 8 samples.

Results

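Embryoid bodies (EBs) at day 2 were compared with EBs at day 1 to find which mature miRNAs stepped up or down between these days, and which steps had the same direction with doxycycline (Dox) and without it. EBs are floating aggregates in which mouse embryonic stem cells (mESCs) begin to differentiate. The comparison takes in 4 of the 8 small RNA libraries of the series: day 1 and day 2, each as 1 library without Dox and 1 library with Dox, and all 1099 miRNAs listed. All 4 libraries come from cells of the KH2 line with the genotype KH2-DGCR8, so the controls without Dox carry the same genotype. KH2 is an mESC line made for transgenes that Dox switches on, and the series was designed to overexpress DGCR8 protein during EB differentiation. DGCR8 is the RNA-binding subunit of the Microprocessor, the nuclear complex that releases miRNA hairpins. Each condition was sequenced once, nothing in the labels ties the libraries to separate cultures, and the duration of the Dox treatment was not given in the sources used here. Each p-value below therefore rests on no replicates. It sets a step against how the difference between the treatments varied over the days of all 8 libraries. That spread may be technical or may include effects of Dox, and these cannot be told apart.

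A miRNA hairpin gives a 5p and a 3p arm, and an arm loaded into an Argonaute protein finds its targets mainly through the seed, bases 2 to 8. In mESCs the miR-290 cluster, whose main seed promotes the rapid stem cell cycle, supplies a large part of all miRNAs, and the related miR-302 and miR-367 cluster comes on as cells move towards the post-implantation epiblast. The Dlk1-Dio3 region is an imprinted domain whose miRNAs are made from long non-coding transcripts of the maternal chromosome. The miR-106a to miR-363 cluster on the X chromosome is a copy of the miR-17 to miR-92a cluster, and both are known for promoting proliferation.

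Values are read as RPM (a miRNA's reads scaled to a fixed total per library), rounded to whole numbers in the deposited table. The day 1 libraries rested on 449794 implied reads without Dox and 517781 with Dox, and the day 2 libraries on 421524 and 470139. Implied reads are the whole-number counts of which the rounded values are multiples. Between 697 and 751 miRNAs were above 0 in a library, and 3 reads correspond to between 5.79 and 7.12 RPM, so steps near that level are imprecise. The identity of the cells fits the label: the miR-290 cluster held between 36.1% and 41.5% of the reads in these 4 libraries. RPM are shares of a library, and in bulk samples a smaller number of cells that express a miRNA cannot be told apart from less of it per cell.

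The sequences that carry the comparison fall into 3 sets, taken by name from RefSeq (GRCm38.p6) and written 5′ to 3′ with the seed in capitals. The first set shows Dlk1-Dio3 miRNAs with low adjusted p-values and, for miR-300-3p, a close relative of miR-381-3p. Their seeds differ from each other.
miR-369-3p: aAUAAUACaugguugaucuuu
miR-410-3p: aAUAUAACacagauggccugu
miR-434-5p: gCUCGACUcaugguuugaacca
miR-381-3p: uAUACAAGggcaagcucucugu
miR-300-3p: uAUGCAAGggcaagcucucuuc

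The next set shows the X-linked miR-20b-5p, miR-106a-5p and miR-363-3p beside relatives with the same seed, most of them from other clusters (miR-92a-3p has a hairpin in this cluster and another on chromosome 14). It is printed because members of 1 seed family stepped by different amounts, and because miR-20b-5p differs from miR-17-5p, miR-20a-5p and miR-106a-5p at only 2 bases each.
miR-20b-5p: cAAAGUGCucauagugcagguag
miR-106a-5p: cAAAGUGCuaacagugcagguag
miR-17-5p: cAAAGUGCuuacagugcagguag
miR-20a-5p: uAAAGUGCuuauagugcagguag
miR-363-3p: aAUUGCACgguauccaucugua
miR-92a-3p: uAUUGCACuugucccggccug
miR-92b-3p: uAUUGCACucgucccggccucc

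The last set shows the stem cell clusters. The 3p arms of several miR-290 hairpins and of miR-302 share the seed AAGUGCU, while the 5p arms of miR-292a and miR-293 share CUCAAAC.
miR-291a-3p: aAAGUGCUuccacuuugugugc
miR-294-3p: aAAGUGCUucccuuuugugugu
miR-295-3p: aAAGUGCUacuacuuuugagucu
miR-302d-3p: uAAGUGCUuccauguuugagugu
miR-293-3p: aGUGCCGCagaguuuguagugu
miR-292a-5p: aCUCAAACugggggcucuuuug
miR-293-5p: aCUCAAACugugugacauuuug

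Between day 1 and day 2 the miRNAs that rose came mostly from the Dlk1-Dio3 region and the miR-106a to miR-363 cluster, and those that fell included miR-150-5p, miR-92b-3p and miR-292a-5p. Of 839 miRNAs tested, 30 (3.58%) passed the threshold of an adjusted p of 0.05 in limma's moderated test, fitted on all 8 libraries with treatment and day as terms. Of these, 23 (2.74%) were higher and 7 (0.834%) were lower at day 2. In each of the 30 both treatments moved the same way and both day 2 values lay beyond both day 1 values, which 351 (41.8%) of all miRNAs tested did. With median-of-ratios scaling in place of RPM the split was 21 higher and 11 lower. With a pseudocount of 5 it was 20 and 2, without a filter 21 and 3, and with limma-voom 23 and 4. The median step of all miRNAs was 0 on the log2(RPM + 1) scale used for all log2 values here, a scale on which steps of scarce miRNAs look smaller than they are. The calls lean on limma's robust estimate of the spread, which for most miRNAs comes from the trend over all miRNAs and not from their own libraries: 0 passed without it, with 112 at an unadjusted p under 0.05, against 130 with it. They also depend on single libraries: 0 passed without the day 1 library without Dox, 0 without the day 2 library without Dox, 14 without the day 1 library with Dox and 4 without the day 2 library with Dox.

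A plainer reading asks only for a ratio of at least 2-fold the same way in both treatments, with each 95% counting interval leaving out 1. These intervals cover counting error only. By this rule 19 miRNAs (2.26%) had an agreeing step, 13 higher (1.55%) and 6 lower (0.715%). Among the 30 that passed limma's threshold 11 were agreeing steps, and the other calls had a ratio under 2-fold or a wide interval in at least 1 treatment. The 8 agreeing steps that did not pass were miR-302a-3p, miR-667-5p, miR-539-5p, miR-16-2-3p and miR-31-3p, which were higher, and miR-466i-3p, miR-466f-3p and miR-124-3p, which were lower.

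**Figure D1:**
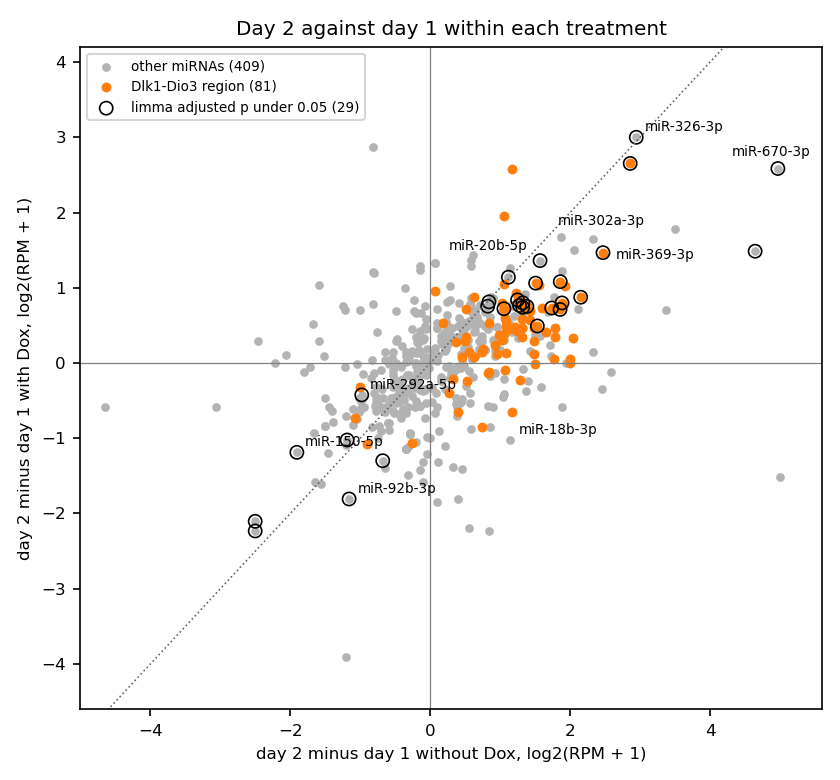
Step from day 1 to day 2 without Dox (horizontal) and with Dox (vertical), both as differences of log2(RPM + 1), for the 490 miRNAs that averaged at least 10 RPM over the 4 libraries. Orange points are Dlk1-Dio3 miRNAs, rings mark the 29 of these miRNAs with a limma adjusted p under 0.05, and the dotted line marks equal steps. All rings lie in the upper right or lower left part, and most orange points lie right of 0 and below the dotted line.

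The Dlk1-Dio3 region gave 15 of the 23 miRNAs that rose and none of the 7 that fell. Of 103 miRNAs listed for it 100 were tested, from hairpins spread over 184 kb of chromosome 12 (GRCm38). Their median step was 0.83, with 86 of 100 above 0, beside a median of -0.02 for the 739 tested outside the region. Of those 739, 323 were above 0, and 8 passed the threshold as rises and 7 as falls. The region's share of all reads stood at 6.07% at day 1 and 13.4% at day 2 without Dox, and at 8.61% and 12.1% with Dox. At day 0 the shares had been 6.57% and 8.34%, close to those of day 1, and at day 4 they were 22.2% and 21.2%. Under both other scalings tried the region's median step was above 0, at 0.73 and 0.75. It was 0.46 without the day 1 library without Dox and 1.09 without the day 1 library with Dox.

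miR-369-3p had the lowest adjusted p. Without Dox it was at 500 RPM at day 1 and 2773 at day 2, and with Dox at 676 and 1870. Both day 2 libraries lay above both day 1 libraries, with ratios of 5.54 (95% interval 4.8 to 6.42) and 2.77 (2.44 to 3.14). Its rise was 1.97 in log2 units (SE 0.29, limma adjusted p = 8.57e-09). Its hairpin lies in an intron of Mirg, the non-coding host transcript at the distal end of the region (chr12:109743418-109743496, plus strand). Its day 0 levels of 865 and 746 RPM were above the day 1 levels in both treatments.

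miR-410-3p comes from an exon of Mirg just downstream (chr12:109743715-109743795). It went from 1136 to 4194 RPM without Dox and from 1493 to 2597 with Dox, and rose by 1.34 (SE 0.27, limma adjusted p = 3.14e-04). The groups did not overlap, but the ratio with Dox was 1.74, so this is no agreeing step. miR-409-3p, from an intron of Mirg upstream of miR-369, went from 776 to 2811 RPM and from 1031 to 1689 and rose by 1.28 (SE 0.28, limma adjusted p = 8.75e-04). Here too the step without Dox, 3.62-fold, was the larger, against 1.64-fold with Dox.

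miR-381-3p had the highest mean of the region over the 4 libraries, although miR-127-3p and miR-300-3p lay above it at day 1. Its level without Dox was 6587 RPM at day 1 and 17164 at day 2, and with Dox 11267 and 18971. The day 2 values of the treatments lay close together while the day 1 value without Dox was the lower. It rose by 1.07 (SE 0.23, limma adjusted p = 8.14e-04). miR-300-3p, a relative from a nearby hairpin, went from 8350 to 16568 RPM and from 12034 to 15566, and did not pass the threshold (0.68, SE 0.23, limma adjusted p = 0.0711). The other arm of that hairpin, miR-300-5p, was far scarcer, at 7 RPM on day 1 and 57 on day 2 without Dox, against 6 and 43 with Dox, and rested on 3 reads in each day 1 library. Its ratios of 8.54 (2.59 to 44.3) and 7.34 (2.18 to 38.6) nevertheless agreed, and it passed the threshold (limma adjusted p = 0.00119).

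Among the remaining Mirg cluster miRNAs miR-134-5p, known from dendritic spines and from mESC differentiation, went from 3053 to 7632 RPM without Dox and from 4513 to 7536 with Dox (1.03, SE 0.25, limma adjusted p = 0.00343). miR-154-3p went from 149 to 543 RPM and from 120 to 255, an agreeing step with ratios of 3.65 and 2.13 (limma adjusted p = 0.0041). miR-379-5p, the first hairpin of the cluster, went from 5458 to 11326 and from 6823 to 11246 (0.89, SE 0.24, limma adjusted p = 0.0101). All 4 values of each of these miRNAs placed day 2 above day 1. miR-758-3p, miR-543-3p, miR-382-5p and miR-679-3p also rose. The last was listed at 0 in both day 1 libraries and at 5 and 19 RPM at day 2, so its size cannot be given. In all, 12 of 71 Mirg cluster miRNAs tested rose, with a median step of 0.86.

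The anti-Rtl1 miRNAs are encoded opposite the exon of Rtl1, a retrotransposon-derived gene expressed from the paternal chromosome, and are known to cut its messenger RNA. Of 10 tested 2 rose and the median step was 0.64. miR-434-5p (chr12:109594506-109594599) went from 1807 to 5134 RPM without Dox and from 1487 to 3105 with Dox, an agreeing step with ratios of 2.84 (2.62 to 3.08) and 2.09 (1.91 to 2.28). It rose by 1.28 (SE 0.27, limma adjusted p = 3.14e-04). miR-136-3p went from 800 to 2313 RPM and from 983 to 1383 and rose by 1.01 (SE 0.28, limma adjusted p = 0.0132). miR-127-3p, the most abundant of the group, went from 8524 to 16113 RPM and from 11441 to 13451 and did not pass (0.58, limma adjusted p = 0.182).

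In the Meg3 and Rian part 1 of 19 tested rose, miR-341-3p, from an intron of Rian (chr12:109611500-109611595). It went from 3282 to 7796 RPM without Dox and from 3716 to 6647 with Dox (1.04, SE 0.26, limma adjusted p = 0.0041), so the treatments were close at both days. miR-370-3p, from another Rian intron, went from 2768 to 5777 and from 3662 to 4801 RPM and did not pass (limma adjusted p = 0.0903). The median step of the 19 was 0.79, so the part with few calls had a median near that of the Mirg cluster.

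**Figure D2:**
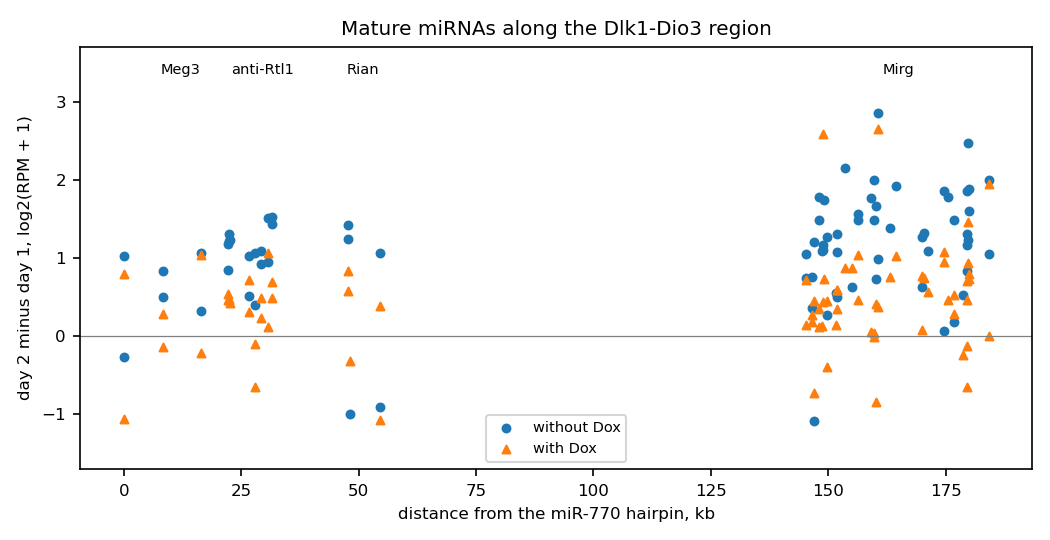
Step from day 1 to day 2, as a difference of log2(RPM + 1), by the distance of the hairpin from that of miR-770 in kb. Drawn are Dlk1-Dio3 miRNAs that averaged at least 10 RPM and whose hairpin was located. Not all of the 81 miRNAs at that level had such a locus, and those without are left out. Circles are without Dox and triangles with Dox. Points above 0 occur along the whole region from Meg3 to Mirg, and the circles mostly lie above the triangles.

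Of the 81 Dlk1-Dio3 miRNAs that averaged at least 10 RPM, 77 were higher at day 2 without Dox, 65 with Dox and 65 in both treatments. The step was the larger without Dox in 73 of the 81, whereas among the 490 miRNAs of that level in all it held for 285. The median step of the region was 1.14 without Dox and 0.46 with Dox. Whether the treatments differ in this step was not tested, since each step is 1 library against 1 library. Of 33 hairpins with both arms at that level 27 had both arms above 0 and none had both below. Among the 111 other hairpins of that level, 60 had the same sign in both arms. Exceptions among single miRNAs include miR-299a-5p, chosen after its values were seen, at 107 RPM on day 1 and 50 on day 2 without Dox, against 156 and 94 with Dox. miR-541-5p, also chosen that way, went up without Dox, from 3739 to 5383 RPM, and down with Dox, from 6211 to 5260.

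**Figure D3:**
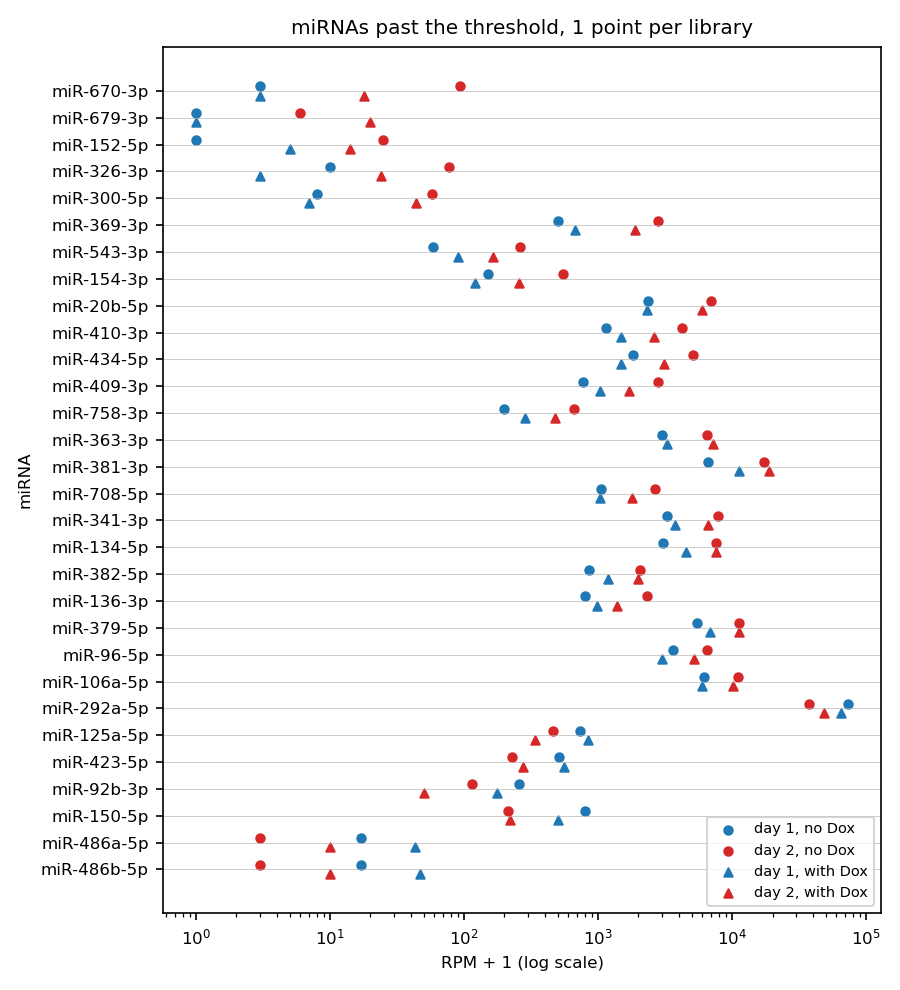
Level in each of the 4 libraries, as RPM + 1 on a log scale, of the 30 miRNAs with a limma adjusted p under 0.05, ordered by step. Circles are without Dox, triangles with Dox, blue day 1 and red day 2. Red and blue points do not overlap in any row, and the rows at the top and bottom ends hold miRNAs with few reads in some libraries.

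The miR-106a to miR-363 cluster gave 3 of the 8 rises outside the Dlk1-Dio3 region. Its share of reads went from 1.37% to 2.88% without Dox and from 1.42% to 2.71% with Dox, so the treatments were close at each day. These shares and the counts below leave out miR-92a-3p and miR-19b-3p, which are also encoded in the miR-17 to miR-92a cluster and are counted there. miR-92a-3p alone, at 22653 RPM at day 1 without Dox, exceeded the listed cluster, at 13728, and lay lower at day 2 in both treatments. miR-20b-5p (chrX:52742113-52742192, minus strand) stood at 2352 RPM at day 1 and 6982 at day 2 without Dox, and at 2331 and 5988 with Dox. Its ratios were 2.97 (2.77 to 3.19) and 2.57 (2.4 to 2.75), an agreeing step, and it rose by 1.47 (SE 0.26, limma adjusted p = 1.08e-05). miR-363-3p (chrX:52741693-52741767) went from 2972 to 6448 and from 3283 to 7238 RPM. It rose by 1.13 (SE 0.26, limma adjusted p = 0.00119), with almost equal ratios of 2.17 (2.03 to 2.32) and 2.2 (2.08 to 2.34). miR-106a-5p went from 6205 to 10965 and from 5999 to 10123 RPM and rose by 0.79 (SE 0.25, limma adjusted p = 0.0431), a call that median-of-ratios scaling ends (limma adjusted p = 0.113).

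The other arms of the miR-20b and miR-106a hairpins were too scarce to read, at no more than 14 RPM in any of the 4 libraries. miR-363-5p, chosen after its values were seen, was at 127 and then 71 RPM without Dox and at 141 and then 145 with Dox. The ratio of miR-363-3p to miR-363-5p thus went from 23.2 to 89.6 and from 23.1 to 49.6. miR-18b-5p of the same cluster, also chosen after its values were seen, went from 1981 to 4166 RPM and from 2333 to 3548 and narrowly missed the threshold (0.84, SE 0.27, limma adjusted p = 0.0513). Of the 10 cluster miRNAs tested 3 rose, none fell and the median step was 0.43.

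In the miR-17 to miR-92a cluster, the related copy on chromosome 14, 0 of 12 passed the threshold and the median step was 0.55. miR-17-5p, which differs from miR-106a-5p at 1 base, went from 7517 to 11598 RPM without Dox and from 6918 to 10727 with Dox (0.63, SE 0.24, limma adjusted p = 0.139). miR-20a-5p went from 10821 to 14917 and from 8197 to 10408 RPM (0.40, limma adjusted p = 0.414). miR-20b-5p thus had a larger ratio than either relative in each treatment, although no source used here says how reads were divided between such near-identical miRNAs. At day 1 without Dox miR-7a-5p and miR-7b-5p, 1 base apart, had near-equal values of 17450 and 16459 RPM. let-7a-5p and let-7e-5p, also 1 base apart, did not, at 1358 and 322 RPM. Reads may thus be counted under more than 1 name, which also concerns miR-106a-5p beside miR-17-5p and the sum below. Summed over the 6 miRNAs with the seed AAAGUGC, the level went from 34969 to 53282 RPM and from 30191 to 44456, ratios of 1.52 and 1.47.

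The seed AUUGCAC behaved differently, because its members moved in opposite directions. miR-363-3p rose, while miR-92b-3p, which is known from neural progenitors and lies outside both clusters on chromosome 3, fell. miR-92b-3p had 256 RPM at day 1 and 114 at day 2 without Dox, and 174 and 49 with Dox, with ratios of 0.445 (0.311 to 0.629) and 0.281 (0.17 to 0.449), and fell by 1.48 (SE 0.40, limma adjusted p = 0.0105). miR-92a-3p, the most abundant of the family and 2 bases apart from miR-92b-3p, was at 22653 and then 20160 RPM without Dox and at 18842 and then 15398 with Dox (limma adjusted p = 0.651). miR-25-3p stood at 12761 and 9307 and at 15688 and 13051 RPM (limma adjusted p = 0.476). The sum over the 6 miRNAs with this seed therefore moved little, with ratios of 0.948 and 0.952.

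The miR-302 and miR-367 cluster, on chromosome 3 within an intron of Larp7 on the opposite strand, was still scarce. It held 0.0845% of reads at day 1 and 0.234% at day 2 without Dox, and 0.0742% and 0.13% with Dox, while at day 4 it reached 3.58% without Dox and 0.237% with Dox. None of its 9 miRNAs passed the threshold, and 1 had an agreeing step. miR-302a-3p went from 102 to 429 RPM without Dox and from 89 to 253 with Dox, ratios of 4.2 (3.02 to 5.94) and 2.85 (2.01 to 4.1), with a fitted step of 1.78 (SE 0.96, limma adjusted p = 0.476). miR-302d-3p went from 400 to 1025 and from 292 to 553 RPM (1.14, SE 1.18, limma adjusted p = 0.716), and miR-302b-3p from 200 to 439 and from 207 to 300 (0.83, SE 1.34). For these miRNAs day 2 lay above day 1 in each treatment. With the day 4 libraries left out, where the treatments lay far apart, limma gave adjusted p = 6.6e-05 for miR-302a-3p and adjusted p = 0.00449 for miR-302d-3p.

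The miR-290 cluster on chromosome 7 held a smaller share of reads at day 2, at 41.5% and then 36.1% without Dox and 39.4% and then 37.4% with Dox. Of its 14 miRNAs tested 9 had both day 2 values below both day 1 values and 3 both above. Among all miRNAs tested these shares were 19% and 22.9%. The cluster's median step was -0.36. Its arms did not move together. miR-292a-5p, the most abundant 5p arm, stood at 73378 RPM at day 1 and 37213 at day 2 without Dox, and at 64774 and 48262 with Dox. Its ratios were 0.507 (0.498 to 0.517) and 0.745 (0.733 to 0.758), and it fell by 0.70 (SE 0.21, limma adjusted p = 0.0379), the only call among the 14 cluster miRNAs tested. miR-293-5p, which carries the same seed, stood at 41005 and 23987 and at 33877 and 27045 RPM and did not pass (-0.55, SE 0.23, limma adjusted p = 0.182). Summed over the 3 miRNAs with the seed CUCAAAC the level went from 118249 to 63456 RPM and from 102149 to 77734, ratios of 0.537 and 0.761.

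On the 3p side miR-295-3p had 40330 RPM at day 1 and 53008 at day 2 without Dox, and 36614 and 51353 with Dox (0.44, SE 0.22, limma adjusted p = 0.296). miR-291a-3p stood at 30939 and 42263 and at 29277 and 38333 RPM (0.42, limma adjusted p = 0.342). miR-294-3p lay the other way, at 54240 and 45153 and at 59164 and 43562 RPM (-0.35, limma adjusted p = 0.418), although it carries the same seed. miR-293-3p, the most abundant miRNA of these libraries, was at 106500 and then 105909 RPM without Dox and at 107760 and then 110999 with Dox. Its fitted step of 0.02 turned to -0.082 with median-of-ratios scaling. The 5 matched miRNAs with the seed AAGUGCU, with 2 from the miR-302 cluster, summed to 126109 and 141888 RPM without Dox and 125554 and 134101 with Dox, ratios of 1.13 and 1.07. Sums by seed cover only miRNAs matched to RefSeq by name, which leaves out miR-302a-3p.

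The ratio of the 3p to the 5p arm is unaffected by how a library is scaled. For miR-291a it went from 4.75 at day 1 to 10.4 at day 2 without Dox and from 4.55 to 9.21 with Dox. miR-291a-5p, chosen after its values were seen, supplied part of this, at 6514 RPM on day 1 and 4069 on day 2 without Dox, against 6431 and 4163 with Dox. The ratio went from 2.60 to 4.42 and from 3.18 to 4.10 for miR-293, and from 0.733 to 1.17 and from 0.762 to 0.912 for miR-292a. In all, 4 of the 7 cluster hairpins had both day 2 ratios above both day 1 ratios, miR-291b being the other, and 0 had both below. Among the 144 hairpins with both arms at a mean of at least 10 RPM these numbers were 31 (21.5%) and 50 (34.7%), so the more common shift over all hairpins was towards the 5p arm. The shift in the cluster was not tested.

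**Figure D4:**
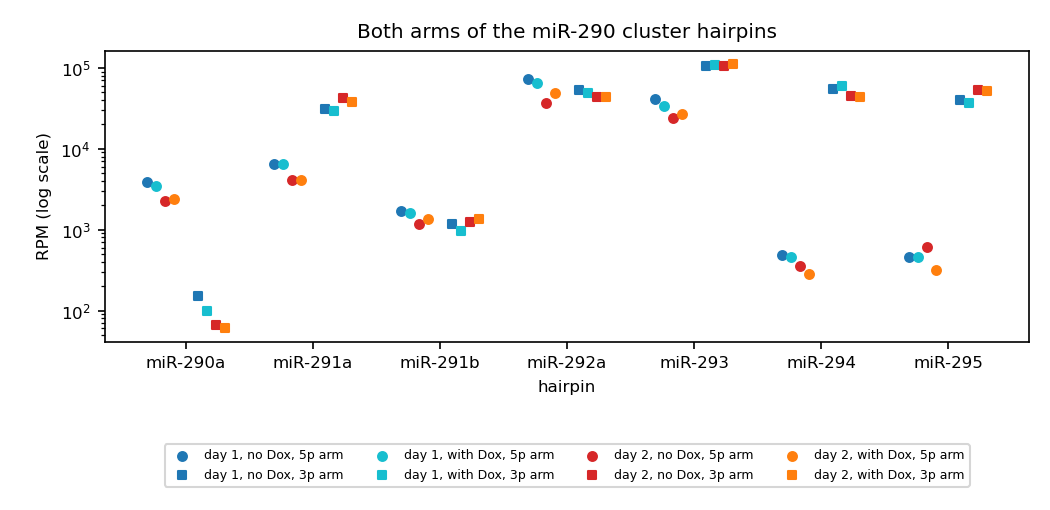
Level of the 5p arm (circles) and 3p arm (squares) of the 7 miR-290 cluster hairpins, in RPM on a log scale, with 1 point per library. Blue and cyan are day 1 without and with Dox, and red and orange are day 2 without and with Dox. The 5p arms of miR-291a, miR-292a and miR-293 lie lower at day 2, while the 3p arms of miR-291a and miR-295 lie higher.

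Among the miRNAs that fell, miR-150-5p, known from lymphocytes and as a regulator of Myb, had the lowest adjusted p. It stood at 794 RPM at day 1 and 211 at day 2 without Dox, and at 500 and 219 with Dox. Both day 2 libraries lay below both day 1 libraries, with ratios of 0.266 (0.208 to 0.336) and 0.438 (0.345 to 0.552), and it fell by 1.55 (SE 0.35, limma adjusted p = 0.00108). It had stood higher at day 0, at 1185 and 1080 RPM, and stood at 50 and 74 at day 4.

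miR-423-5p, from an intron of Nsrp1 (chr11:77078064-77078172, minus strand), had 514 RPM at day 1 and 225 at day 2 without Dox, and 554 and 272 with Dox, an agreeing step with ratios of 0.439 and 0.491. It fell by 1.11 (SE 0.35, limma adjusted p = 0.045). The other arm, miR-423-3p, chosen after its values were seen, stood at 2864 and 1442 without Dox and 2829 and 1872 with Dox and did not pass (limma adjusted p = 0.0747). miR-125a-5p, a relative of lin-4 that represses Lin28, stood at 734 and 458 RPM and at 838 and 340. It fell by 0.99 (SE 0.31, limma adjusted p = 0.045), although at day 0 it had stood lower, at 342 and 563 RPM. miR-486a-5p and miR-486b-5p, erythroid miRNAs with near-equal values that cannot be separated, stood at 16 and 2 RPM without Dox, and at 42 or 46 and 9 with Dox. They count as 2 of the 7 falls, and their interval without Dox (0.00338 to 1.19) included 1. With a pseudocount of 5, miR-423-5p, miR-125a-5p, miR-292a-5p and both miR-486 miRNAs missed the threshold, at limma adjusted p between 0.0526 and 0.0588.

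miR-124-3p, a neuronal miRNA, was at 198 and then 85 RPM without Dox and at 158 and then 74 with Dox. Its ratios of 0.432 (0.285 to 0.642) and 0.47 (0.307 to 0.706) agreed, but it did not pass the threshold (-1.15, SE 0.45, limma adjusted p = 0.139). miR-466i-3p stood at 58 and 19 RPM and at 48 and 15, and miR-466f-3p at 73 and 26 and at 54 and 23. Both belong to the miR-297, miR-466, miR-467 and miR-669 families, many of whose members lie in the gene Sfmbt2, and neither passed (limma adjusted p = 0.182 and 0.231). Of the 75 family members tested 0 passed and the median step was -0.18. The families went both ways: 31 members had both day 2 values below both day 1 values and 22 both above. Among all miRNAs tested these shares were 19% and 22.9%. The summed level was higher at day 2, at 10050 against 9165 RPM without Dox and 10045 against 8740 with Dox. Several members have the same mean and step, such as miR-466b-3p, miR-466c-3p and miR-466e-3p. These counts and sums may therefore hold the same reads more than once.

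miR-708-5p rose from 1054 to 2638 RPM without Dox and from 1026 to 1787 with Dox (1.06, SE 0.28, limma adjusted p = 0.00673). Its level had been 3151 and 2468 RPM at day 0, so day 1 was the lowest of the 4 days in each treatment. The other arm, miR-708-3p, chosen after its values were seen, had 160 RPM at day 1 and 242 at day 2 without Dox, and 120 and 125 with Dox. miR-96-5p, known from sensory hair cells, went from 3637 to 6507 and from 2974 to 5224 RPM and rose by 0.83 (SE 0.26, limma adjusted p = 0.0431). Median-of-ratios scaling ends that call (limma adjusted p = 0.113). Its cluster partners lay the other way: miR-182-5p stood at 41143 and 30437 and at 45170 and 33522 RPM, and miR-183-5p at 35928 and 25842 and at 34988 and 29077 (limma adjusted p = 0.315 and 0.418).

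The remaining rises rested on few reads at day 1. miR-326-3p, from an intron of Arrb1 (chr7:99552269-99552363), went from 9 to 76 RPM without Dox and from 2 to 23 with Dox, which is from 4 to 32 and from 1 to 11 reads. Its ratios of 8.54 (3.03 to 33.2) and 12.1 (1.76 to 521) agreed (limma adjusted p = 0.00626). miR-670-3p went from 2 to 93 and from 2 to 17 RPM, from 1 read in each treatment, with ratios of 41.6 (7.04 to 1685) and 8.81 (1.18 to 391). miR-152-5p went from 0, which allows up to 6.67 RPM, to 24 without Dox and from 4 to 13 with Dox. The direction of these steps was shared by both treatments, while their size is poorly fixed.

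Among agreeing steps that did not pass, miR-16-2-3p was at 2 and then 33 RPM without Dox and at 6 and then 23 with Dox (limma adjusted p = 0.0581). It is the scarce arm of a hairpin in an intron of Smc4, whose abundant arm miR-16-5p stood at 1779 and 2536 and at 1613 and 2257 RPM. miR-31-3p stood at 13 and 50 and at 10 and 34 RPM (limma adjusted p = 0.182). In the Dlk1-Dio3 region miR-667-5p stood at 38 and 114 and at 41 and 85 RPM, and miR-539-5p at 13 and 52 and at 33 and 68 (limma adjusted p = 0.1 and 0.139). For each of these the day 2 values were the higher in both treatments.

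**Figure D5:**
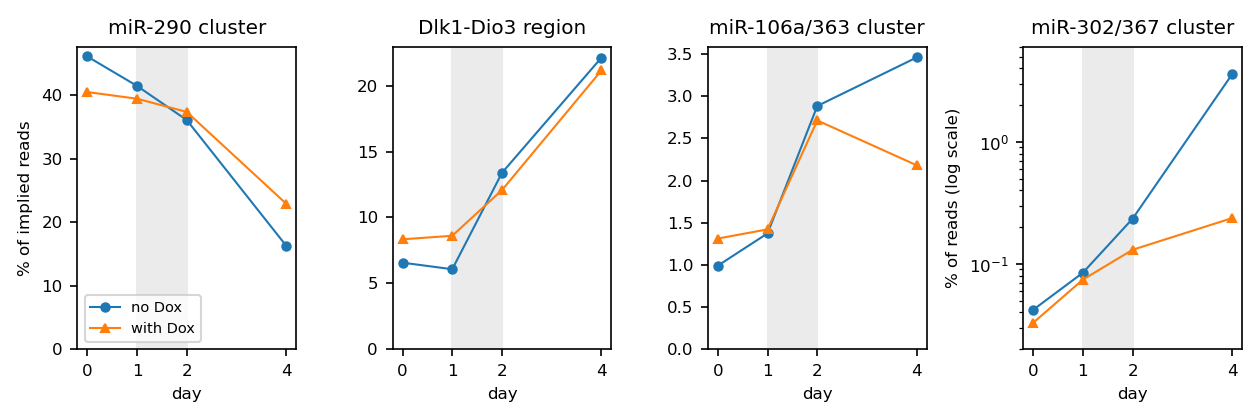
Share of all miRNA reads, in percent, held by 4 clusters at days 0, 1, 2 and 4 without Dox (blue) and with Dox (orange), 1 library per point, with the step from day 1 to day 2 shaded. The vertical axis of the miR-302 and miR-367 panel is logarithmic. Between days 1 and 2 the Dlk1-Dio3, miR-106a to miR-363 and miR-302 and miR-367 shares went up and the miR-290 share went down in both treatments.

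Some families had members just short of the threshold. The miR-29 family is known for repressing collagens and DNA methyltransferases. miR-29a-3p had 273 RPM at day 1 and 678 at day 2 without Dox, and 436 and 683 with Dox (0.98, SE 0.32, limma adjusted p = 0.0528), and the near-identical miR-29c-3p gave limma adjusted p = 0.0534. Of the 7 family members tested 5 had a step above 0, beside 409 of all 839 miRNAs tested. Only 3 of the 7 averaged at least 10 RPM over the 4 libraries. In the miR-181 family, miR-181b-5p stood at 3346 and 1689 and at 2914 and 1908 RPM (-0.80, SE 0.27, limma adjusted p = 0.0711), and miR-181d-5p at 3733 and 1931 and at 3304 and 2208 (limma adjusted p = 0.0864). Of 8 members tested, 4 had both day 2 values below both day 1 values, which 19% of all miRNAs tested did. These averaged between 538 and 2794 RPM over the 4 libraries. Another 3 had both above (22.9% of all tested), but they were scarce: miR-181a-5p, miR-181a-2-3p and miR-181a-1-3p averaged 14.25, 5.75 and 1 RPM. Median-of-ratios scaling brought miR-181b-5p and miR-181d-5p past the threshold (limma adjusted p = 0.0392 and 0.0468). The sequences of miR-181b-5p and miR-181d-5p differ at 1 base and their values ran in parallel. Reads may be counted under both names, so these may be 1 signal.

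The miR-30 family had 0 of 11 members past the threshold and a median step of -0.35. In 9 of them both day 2 values lay below both day 1 values, which 159 of the 839 miRNAs (19%) did. Its most abundant member, miR-30a-5p, was at 14676 and then 13295 RPM without Dox and at 16996 and then 13309 with Dox. Within the miR-15/16 family, miR-15b-5p, whose hairpin adjoins that of miR-16-2, stood at 663 and 384 and at 740 and 496 RPM (limma adjusted p = 0.246) while miR-16-5p lay the other way (limma adjusted p = 0.372). The families thus differ in how evenly their members stepped, but no member of either passed.

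let-7, the family that promotes differentiation and is held back by Lin28 in mESCs, had 0 of 17 members past the threshold and a median step of -0.04. let-7a-5p had 1358 RPM at day 1 and 1338 at day 2 without Dox, and 1251 and 1198 with Dox, well above its day 0 levels of 548 and 547. The epithelial miR-200 family had 0 of 9, and miR-200b-3p stood at 5298 and 3881 and at 4554 and 3182 RPM (limma adjusted p = 0.35). The 7 Hox cluster miRNAs tested gave 0 calls with a median of 0.06, and the 17 tested that are reported to bypass the Microprocessor gave 0 with a median of 0.12. No member passed in the clusters that hold miR-106b and miR-25, miR-322 and miR-503, or miR-23a and miR-27a, nor in the miR-130, miR-34 and miR-99 families.

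Markers of other cell types gave 1 rise and 1 fall, beside the 3.58% of all miRNAs tested that passed. Of 14 fibroblast or feeder cell markers 1 rose, miR-152-5p, with a median of -0.14, and their summed level went from 27010 to 25269 RPM without Dox and from 26743 to 33441 with Dox. miR-21a-5p, the most abundant of them, stood at 20472 and 19709 without Dox and 19676 and 27007 with Dox, so the treatments moved apart. None of 12 neural, 7 endoderm and 4 muscle markers passed. The endoderm markers miR-192-5p, at 380 and 176 and at 620 and 406 RPM, and miR-194-5p, at 209 and 78 and at 259 and 166, lay lower at day 2 without passing (limma adjusted p = 0.139 and 0.138). The muscle markers miR-1a-3p and miR-133a-3p were listed at 0 or 2 RPM at day 1. At day 2 miR-133a-3p was listed at 24 RPM without Dox and 0 with Dox, and miR-1a-3p at 5 and 0. Of 10 blood and endothelium markers 1 fell, miR-150-5p, while the endothelial miR-126a-3p stood at 803 and 1139 and at 811 and 919 RPM. The part of such cells in the steps above was not tested.

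Of the 490 miRNAs that averaged at least 10 RPM, 351 stepped the same way in both treatments. By the rule used for agreeing steps, 1 miRNA had steps of at least 2-fold in opposite directions, miR-18b-3p, at 51 RPM on day 1 and 114 on day 2 without Dox, against 70 and 34 with Dox. miR-18a-3p of the miR-17 to miR-92a cluster, chosen after its values were seen, differs from it at 2 bases. It also went up without Dox, from 36 to 95 RPM, and down with Dox, from 52 to 40. miR-467a-5p kept its level without Dox, at 1107 and 1158 RPM, and stood at 759 and 1904 with Dox, a ratio of 2.51 (2.23 to 2.83). It is near-identical to miR-467b-5p, with which it shares almost all of its values, so this is 1 signal.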

How the data were processed

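Small RNA sequencing of KH2-DGCR8 EBs gave 1 library per day and treatment. The deposited values are a score: whole numbers that sum to about the same total in each library, read here as RPM rounded by the authors. Bowtie and the build mm10 are named in the submitters' processing notes. Its version, the counting tool, the annotation and the treatment of multiply matching reads were not given in the sources used here. In the table were 1099 miRNAs and 1 row without a miRNA name, left out here.

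A whole read total was sought in which every value of a library is a rounded number of reads (100% of values within rounding, as the search requires). Up to 3 totals matched a library, and the smallest was used. Totals were sought only up to a fixed limit, and in some libraries the double of the matching total lies beyond it. The number of matches therefore does not show how well a total is fixed. The reads were exact in 8 of 8 simulated libraries, but these were searched only near their true total. The choice between several matching totals was therefore not tested. Ratios of 2 libraries have exact conditional binomial 95% intervals on these implied reads. PCR copies are not independent molecules, so intervals cover counting error only.

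log2(RPM + 1) was tested with limma 3.58.1 (R 4.3.3), and other steps used Python 3.11.15. All 8 libraries were fitted with treatment and day as terms, a mean-variance trend and the robust option, and the contrast was day 2 minus day 1. miRNAs with at least 1 RPM in at least 2 libraries were kept (839), with Benjamini-Hochberg adjustment over all of them at 0.05. Treatment pairs the days by design. The script was tested on simulated data, which held no effect of Dox and the same built-in variation for every miRNA. That test therefore cannot say how well the p-values hold in these libraries. No library was imputed.

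Named miRNAs were the 10 higher and 10 lower agreeing steps with the largest smaller ratio and a mean of at least 10 RPM, up to 10 higher and 10 lower by adjusted p, the 3 most abundant of each list, the 10 most abundant of all miRNAs, and opposite steps. The members and lists were chosen with earlier results of these data known. Most names outside the rule are marked, or belong to the 30 calls or the 19 agreeing steps, all of which are named. Exceptions without a mark include let-7e-5p, miR-19b-3p, miR-181a-5p, miR-181a-2-3p, miR-181a-1-3p, miR-466b-3p, miR-466c-3p and miR-466e-3p. RefSeq held 926 of the miRNAs by name, 694 of them tested. Loci are from the GRCm38 annotation. Alternatives covered scaling, pseudocount, filters, the spread estimate, the libraries fitted and limma-voom.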

Additional observations from a re-analysis of the deposited data

Results flagged for a closer look

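miR-18b-3p, from the miR-106a to miR-363 cluster, stepped in opposite directions in the treatments: its day 2 to day 1 ratio was 2.23 (95% counting interval 1.33 to 3.84) without Dox and 0.489 (0.254 to 0.905) with Dox. The difference between the treatments was not tested, because each ratio sets 1 library against 1 library. Its fitted step over both treatments was 0.06 (SE 0.55). miR-18a-3p of the miR-17 to miR-92a cluster, 2 bases apart, also went up without Dox and down with Dox. How reads were divided between them is not known, so the steps may not be particular to miR-18b-3p.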

How the results depend on the processing

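The count of 30 miRNAs past the threshold, with 15 from the Dlk1-Dio3 region, depended on how the spread was estimated. It was 0 (0) without the robust option, 0 (0) with only the libraries of days 1 and 2, which left 101 at an unadjusted p under 0.05, and 69 (28) without the day 4 pair, among them all 30. Treatment is the pairing of the days; without this replicate block 14 (9) passed. Leaving out 1 of the 4 libraries gave 0 to 14 (0 to 9), where the lone library of a day is assumed to vary like the others. It was between 22 and 43 with other scalings, pseudocounts, filters and limma-voom on implied reads. A quasi-likelihood test on them was not run, since the table holds no raw counts. All 30 kept their direction in the 15 alternatives. This is little support, because in each of the 30 both day 2 values lay beyond both day 1 values. Agreeing steps numbered 19, and 67 at 1.5-fold, 18 with median-of-ratios scaling and 14 with 99% intervals. Uncalled values changed sign as follows, and the cause was not tested. With median-of-ratios scaling miR-293-3p was -0.082 and miR-18b-3p -0.035, and with scaling to the reads of other clusters than miR-290 they were -0.070 and -0.026. Leaving out 1 library in turn gave -0.23 to 0.51 for miR-541-5p, -0.040 to 0.075 for miR-293-3p, -0.088 to 0.0039 for let-7a-5p, -0.12 to 0.53 for miR-21a-5p, -0.81 to 0.94 for miR-18b-3p, -0.79 to 3.85 for miR-133a-3p, -0.92 to 1.92 for miR-1a-3p and -0.26 to -0.028 for the blood list's median, 0.16 with all. The feeder median was 0.047 with a mean of at least 10. Depth limits steps near 7.12 RPM.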
